A study of Macaca mulatta with 4 samples.

Results

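Hotspots at the ends of the autosomes were described in DNase-seq libraries of rhesus macaque (Macaca mulatta) morulae. An end was the first 5 Mb of a chromosome or the 5 Mb before the last hotspot found on it in any library, and a hotspot belonged to an end when its midpoint lay there. Of 328084 hotspots in all 4 lists, 29002 (8.84%) lay at the 40 ends of the 20 autosomes and 298816 in the rest of these chromosomes. The ends made up 200 Mb, or 7.48% of the autosomal length seen. The members are defined by position alone, and no measured value other than the position of the last hotspot entered the choice.

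Androgenetic (AG) embryos have a genome of paternal origin only, and in gynogenetic (GG) embryos it comes from the oocyte alone. The study compared 2 AG with 2 GG libraries, all from morulae, the compact ball of cells before the blastocyst. All libraries had the same DNase I treatment, 40 U/ml for 5 min at 37 °C, and no library of fertilised embryos was used here. The sources used here give no donors and no numbers of embryos, and they do not say that replicates had separate origins, so p-values measure only the spread between these libraries, which may be technical. DNase I cuts accessible DNA, and a hotspot is a stretch where cuts are denser than around it. The lists give positions and a score per hotspot but no reads, so the depth of each library is unknown. They held 64730 and 85318 hotspots in AG, and 93171 and 84865 in GG. Positions are on rheMac8, counted from 1, and are given without gene names, because a rheMac8 annotation was not used here. Sets of 4 values run in the order AG replicate 1, AG replicate 2, GG replicate 1, GG replicate 2.

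Chromosome ends are a distinct part of primate genomes. A telomere of short repeats caps each chromosome, and the subtelomeric DNA next to it often holds duplicated sequence, to which short reads may map ambiguously. Further inward, the outer parts of many chromosome arms are rich in genes and in G and C bases. Promoters and enhancers are the usual sites of DNase hotspots, so dense hotspots are a known feature of gene-rich DNA.

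Before any scaling, the length covered by hotspots at the ends overlapped between AG and GG embryos, while in the rest of the chromosomes it was higher in GG. End hotspots covered 6.65 Mb in AG replicate 1, 8.24 Mb in AG replicate 2, 8.21 Mb in GG replicate 1 and 7.37 Mb in GG replicate 2. The group ranges overlap, with means of 7.44 ± 1.12 Mb in AG and 7.79 ± 0.594 Mb in GG (SD, n = 2 libraries each; two-sided exact permutation p = 1). The difference of -0.342 Mb turned to 0.449 Mb without AG replicate 1 and to 0.0781 Mb without GG replicate 1, and was -0.762 Mb without GG replicate 2 and -1.13 Mb without AG replicate 2. In the rest of the autosomes hotspots covered 61.2, 76.0, 93.9 and 85.8 Mb. Here both GG libraries lay above both AG libraries (68.6 ± 10.5 against 89.8 ± 5.74 Mb; SD, n = 2 each; two-sided exact permutation p = 0.33, the smallest that 2 libraries against 2 can give).

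Set against the rest of the same libraries, the ends were denser, and more so in AG. AG replicate 1 had 33.3 kb of hotspots per Mb at the ends and 24.7 kb per Mb in the rest, a ratio of 1.35. AG replicate 2 had 41.2 and 30.7 kb per Mb, a ratio of 1.34. GG replicate 1 had 41.0 and 37.9 kb per Mb, a ratio of 1.08, and GG replicate 2 had 36.8 and 34.7 kb per Mb, a ratio of 1.06. The ratios of replicates thus lay close together and the groups did not overlap, with an AG mean of 1.34 ± 0.00424 and a GG mean of 1.07 ± 0.0133 (SD, n = 2 libraries per group). AG replicate 2 and GG replicate 2 had nearly equal numbers of hotspots, and their ratios were 1.34 and 1.06. They were not equal in covered length (76.0 and 85.8 Mb in the rest). This is 1 library of each group, and the part of depth in the ratios was not tested. Numbers of hotspots in place of covered length gave ratios of 1.35 and 1.31 in AG and of 1.09 and 1.10 in GG.

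**Figure D1:**
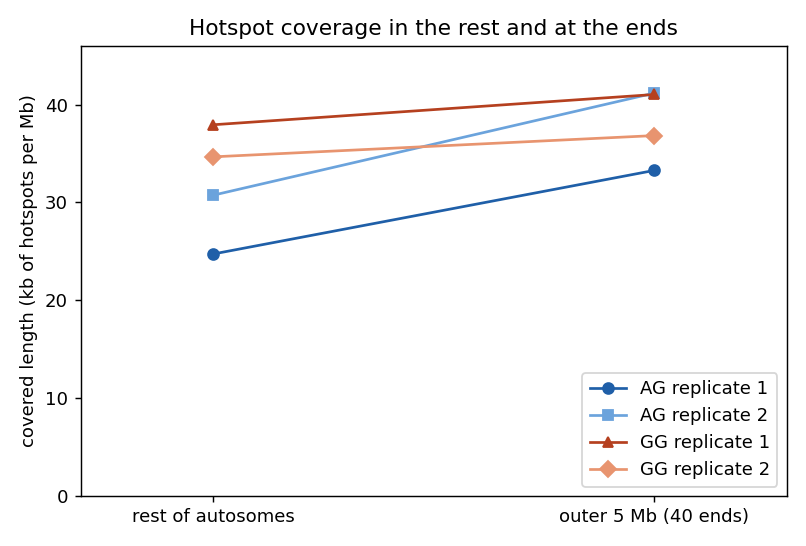
Hotspot coverage (kb covered per Mb, vertical axis from 0) in the rest of the autosomes and in the outer 5 Mb of the 40 chromosome ends, 1 line per library. The AG lines climb from 24.7 and 30.7 to 33.3 and 41.2 kb per Mb, while the GG lines climb only from 37.9 and 34.7 to 41.0 and 36.8 kb per Mb.

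On the log2 scale the mean end-over-rest ratio was 0.26 over the 4 libraries, and it was above 0 in 4 of 4 (two-sided exact sign-flip p = 0.13, the smallest that 4 libraries allow). The AG minus GG difference was 0.32 (means 0.43 ± 0.0046 and 0.10 ± 0.018; SD, n = 2 each; two-sided exact permutation p = 0.33). Pooled ends give every chromosome the same 10 Mb, so short chromosomes weigh more at the ends than in the rest. Chromosome 19 is the densest autosome, and chromosome 20 had the highest end-over-rest ratio of its own (mean 1.93). Without chromosome 19 alone the mean over libraries was 0.20 on the log2 scale. Without chromosomes 19 and 20 the ratios were 1.22 and 1.25 in AG and 1.01 and 0.994 in GG, and the mean over libraries fell to 0.15 on the log2 scale. Against the next 5 Mb inward in place of the whole rest they were 1.14 and 1.15 in AG and 1.00 and 1.02 in GG, with a mean of 0.11 and an AG minus GG difference of 0.18. The GG excess at the ends therefore depended on the comparison, and that of AG kept its direction in both.

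The excess was steepest in the outermost 1 to 2 Mb. Coverage in the outer 0.25 Mb, divided by the library's autosomal mean, was 1.77 and 1.70 in AG, against 1.32 and 1.31 in GG. Between 0.5 and 1 Mb the values were 1.71 and 1.60 in AG and 1.28 and 1.23 in GG. All 4 libraries dipped in the bin between, from 0.25 to 0.5 Mb, with 1.33 and 1.40 in AG and 1.02 and 1.01 in GG. From 3 to 4 Mb the group means were down to 1.07 in AG and 0.933 in GG. A second, lower rise from 7.5 to 10 Mb had an AG mean of 1.24 ± 0.0509 and a GG mean of 1.15 ± 0.0270 (SD, n = 2 libraries per group), so the rise beyond the 5 Mb limit was present in both kinds of embryo.

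The gap between AG and GG was widest in the outer 1 Mb and narrower further inward, but it did not follow coverage bin by bin. The AG mean was 1.32 times the GG mean in the outer 0.25 Mb and 1.35 times from 0.25 to 0.5 Mb, where coverage dipped. It was 1.23 times from 1 to 2 Mb, 1.15 times from 4 to 5 Mb and 1.08 times from 5 to 7.5 Mb. The AG mean stayed at 1.08 times from 7.5 to 10 Mb, where coverage rose in both groups, and was 1.03 times from 10 to 15 Mb. It was 1.05 times from 15 to 20 Mb and 1.07 times from 20 to 25 Mb, and the groups did not overlap in any of these bins. Distances beyond 25 Mb were not binned. Each library is divided by its own autosomal mean, so AG values above GG here go with lower AG values further inward. With each bin set against the mean of the chromosomes it lies on, the AG to GG ratio was 1.25 in the outer 0.25 Mb and 1.03 from 5 to 7.5 Mb. From 10 Mb inward it was between 0.979 and 1.02 and the groups overlapped in the 3 bins to 25 Mb. Distance bins share libraries and chromosomes, so they are a description and carry no test.

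**Figure D2:**
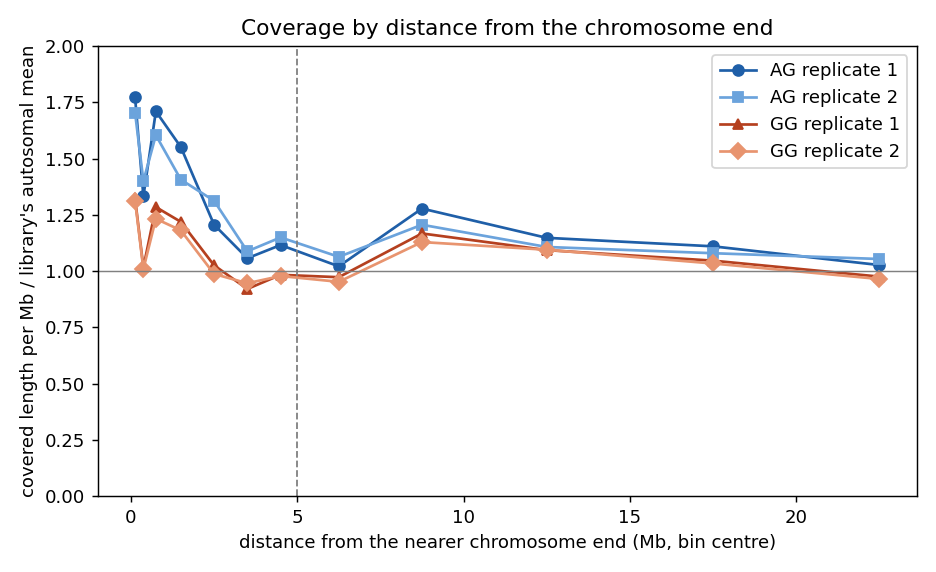
Coverage by distance from the nearer chromosome end (Mb, centre of each bin), divided by each library's autosomal mean, with the 5 Mb limit dashed. The 4 libraries share a peak in the outer 2 Mb, a low between 3 and 7.5 Mb and a lower rise at 7.5 to 10 Mb, and the AG lines lie above the GG lines most clearly in the outer 3 Mb (1.77 and 1.70 against 1.32 and 1.31 in the outermost bin).

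Hotspots were somewhat more numerous just outside the 5 Mb limit than just inside it in 4 of 4 libraries. Within 100 kb inside it lay 106, 131, 140 and 123 hotspots, and within 100 kb outside it 130, 158, 172 and 154. Median widths just inside were between 866 and 979 bp and just outside between 841 and 950 bp. Hotspots reached nearly to the start of the assembled sequence. The distance from position 1 to the first hotspot of a chromosome had medians of 15.2, 11.7, 26.7 and 19.6 kb, and on at least 1 chromosome it was 0.1 kb in every library.

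The last ends were denser than the first ends in 3 of 4 libraries. The first 5 Mb had 32.3, 41.6, 39.9 and 34.9 kb per Mb, and the last 5 Mb had 34.2, 40.8, 42.2 and 38.8 kb per Mb. The last-over-first ratio had an AG mean of 1.02 ± 0.0556 and a GG mean of 1.08 ± 0.0371 (SD, n = 2 libraries per group), and the groups overlapped (two-sided exact permutation p = 0.667).

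Chromosomes differed widely in how far their ends stood out. Chromosome 20 had the highest mean end-over-rest ratio, with 2.17 and 1.82 in AG and 1.88 and 1.86 in GG, so the groups overlapped there. Chromosome 5 had ratios of 2.28 and 1.99 in AG and 1.44 and 1.58 in GG. Chromosome 17 had 1.99 and 1.88 in AG and 1.57 and 1.59 in GG. On both chromosomes every AG library lay above every GG library. The rest of chromosome 5 had 12.5, 22.0, 30.9 and 26.0 kb of hotspots per Mb, and that of chromosome 17 had 14.9, 19.1, 29.1 and 24.0, all below the mean over the rest of all autosomes in the same library. The rest of chromosome 20, with 28.5, 35.9, 31.4 and 27.1 kb per Mb, was above that mean in AG and below it in GG.

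On 4 chromosomes the ends were sparser than the rest in all 4 libraries. Chromosome 9 had ratios of 0.702 and 0.895 in AG and 0.696 and 0.740 in GG. Chromosome 13 had 0.863 and 0.866 in AG and 0.780 and 0.682 in GG. Chromosome 4 had 0.629 and 0.773 in AG and 0.849 and 0.943 in GG, and was the only chromosome on which both GG libraries had the higher ratio. The other one was chromosome 10, with 0.821 and 0.986 in AG and 0.735 and 0.772 in GG. The ends exceeded the rest in all 4 libraries on 9 chromosomes.

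Counted over chromosomes, the ends were above the rest on 14, 16, 9 and 11 of 20. The median ratio was 1.20 and 1.18 in AG and 0.959 and 1.04 in GG. Both AG libraries lay above both GG libraries on 14 of 20 chromosomes (70% of those compared) and below them on 1 (5%). All 20 autosomes enter here, so these shares are also the background, and the chromosomes share the same 4 libraries, so the count carries no test. Chromosome 19, the densest autosome, had nearly equal ratios of 1.21 and 1.17 in AG and 1.16 and 1.22 in GG. Its ends had 81.3 and 91.3 kb per Mb in AG and 82.1 and 70.4 in GG, and its rest had 67.5 and 77.9 against 70.9 and 57.7. With the rest density of each end's own chromosome as the base, the pooled ratio was 1.24 and 1.25 in AG and 1.04 and 1.06 in GG.

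**Figure D3:**
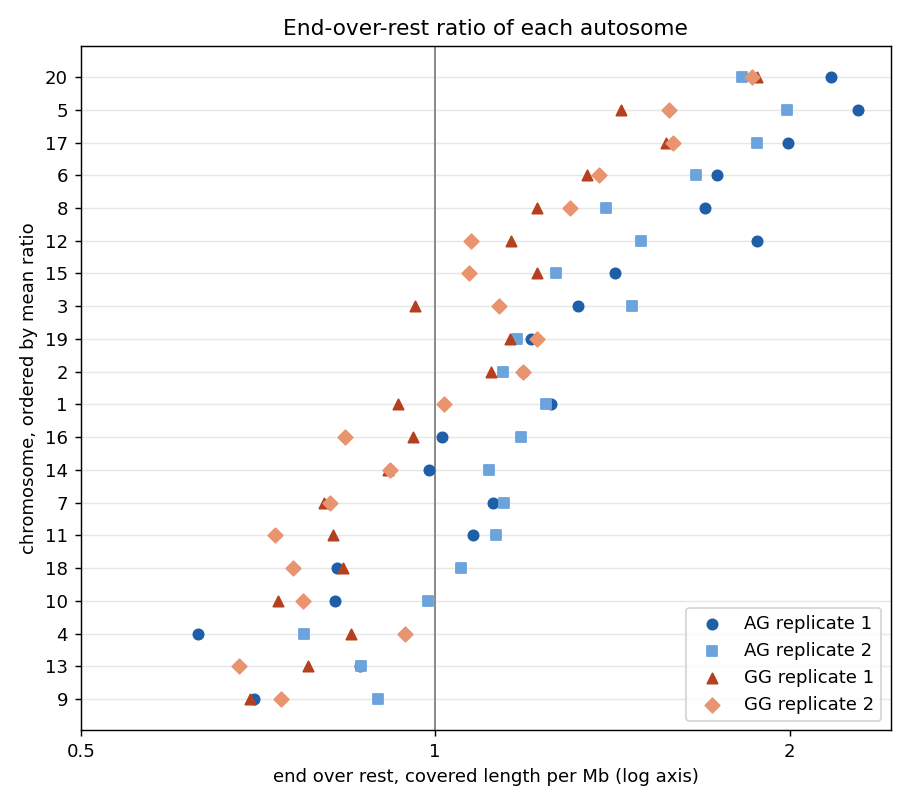
End-over-rest ratio of covered length per Mb (log axis) for each autosome, ordered by the mean of 4 libraries, 1 point per library. Ratios run from 0.629 (chromosome 4, AG replicate 1) to 2.28 (chromosome 5, AG replicate 1), and the AG points lie right of both GG points on 14 of 20 chromosomes.

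The 40 ends were then compared one by one, within a division of all autosomes into 536 segments of about 5 Mb. Their mean coverage over the 4 libraries ranged from 15.8 to 88.2 kb per Mb, 5.58-fold, with a median of 34.5. The last end of chromosome 19 was the densest, with 88.4 and 91.7 kb per Mb in AG and 91.4 and 81.3 in GG. The first end of chromosome 19 had 74.3 and 91.0 in AG and 72.8 and 59.5 in GG, and the first end of chromosome 20 had 72.9 and 79.1 in AG and 72.5 and 62.5 in GG. The first end of chromosome 16 and the last end of chromosome 8 followed with means of 59.3 and 59.2 kb per Mb. The last end of chromosome 19 lay above its first end in 4 of 4 libraries, although their ranges overlap. The first end of chromosome 19 lay above that of chromosome 20 in 3 of 4 libraries, so the order of this pair differed between libraries.

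The sparsest end was the first end of chromosome 2, with 9.25 and 14.7 kb per Mb in AG and 18.3 and 20.9 in GG. The last end of the same chromosome had 42.1 and 45.7 in AG and 58.7 and 59.5 in GG, so the ends of 1 chromosome can differ widely. The first end of chromosome 13 (mean 17.6 kb per Mb), the first end of chromosome 8 (18.2), the last end of chromosome 18 (19.2) and the last end of chromosome 4 (20.7) were the next sparsest. On chromosome 18 the last end was uneven between replicates, with 11.6 and 29.6 kb per Mb in AG and 22.3 and 13.1 in GG.

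Before any scaling, both GG libraries covered more than both AG libraries at 13 of 40 ends (32.5%), against 65.1% of all 536 segments. The reverse held at 5 ends (12.5%), against 2.61% of all segments. GG lists cover more in total, so values were next divided by each library's mean, on the log2 scale with an offset of 5000 bp per 5 Mb, and AG minus GG differences are on that scale. Both AG libraries lay above both GG libraries at 23 of 40 ends (57.5%), against 23.1% of all segments. Both GG libraries lay above both AG libraries at 5 ends (12.5%), against 32.1% of all segments. The median AG minus GG difference was 0.34 at the ends and -0.08 over the 496 segments in the rest, and 30 of 40 ends were above 0. With each library centred within chromosomes, a setting chosen after seeing the data, the medians were 0.26 and 0.0086, so the gap between ends and rest fell from 0.43 to 0.25. Without this centring, both AG libraries lay above both GG libraries at 13 first ends and 10 last ends. With so many ends higher in AG, some chromosomes have both ends higher in AG by coincidence alone. The 2 ends of a chromosome both stood higher in AG on 8 chromosomes. Both stood higher in GG on chromosome 4, and they went opposite ways on 2 chromosomes. Whether the ends of a chromosome went together more often than unrelated ends was not tested.

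By limma with Benjamini-Hochberg adjustment over all segments, 0 of 40 ends passed an adjusted p of 0.05, where 2.24% of all segments did. Without adjustment, p was under 0.05 at 17 ends higher in AG (background 9.14% of all segments) and at 2 higher in GG (background 13.1%). The call depended on the setting. When limma modelled the spread by mean coverage (a variance trend), 16 ends passed (15 with more in AG, 1 with more in GG; background 12.1%), and with an offset of 50000 bp 8 passed (7 in AG, 1 in GG; background 9.89%). Scaling to the median gave 5 (background 9.14%) and centring within chromosomes gave 6 (background 8.77%), all higher in AG. Lists shortened to the shortest gave 1 (background 4.66%), and leaving out GG replicate 2 gave 1 (background 3.92%).

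The smallest p of the ends higher in AG belonged to the first end of chromosome 19, whose values stand above. Its AG minus GG difference was 0.67 on the log2 scale (SE 0.16, limma adjusted p = 0.0723, n = 2 libraries per group). The first end of chromosome 1 had 31.3 and 42.5 kb per Mb in AG and 29.4 and 29.2 in GG, a scaled difference of 0.66 (SE 0.16, limma adjusted p = 0.0740). The last end of chromosome 11 had 24.0 and 32.9 in AG and 25 and 21.2 in GG (difference 0.63), the last end of chromosome 20 had 50.8 and 52.0 against 45.5 and 38.2 (0.65), and the first end of chromosome 10 had 31.1 and 44.3 against 29.4 and 33.3 (0.60). Unscaled values of both AG libraries lay above both GG libraries at the named ends of chromosomes 1, 19 and 20, and overlapped at those of chromosomes 10 and 11. Centred within chromosomes, the differences were much smaller at the first end of chromosome 19 (0.11), the last end of chromosome 20 (0.18) and the first end of chromosome 10 (0.27). They were 0.75 at the first end of chromosome 1 and 0.61 at the last end of chromosome 11.

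Ends that stood higher in GG were few and partly on chromosome 4. Its first end had 16.5 and 29.8 kb per Mb in AG and 48.0 and 43.6 in GG (difference -0.65, SE 0.20, limma adjusted p = 0.120, n = 2 per group). Its last end had 9.82 and 18.8 in AG and 29.9 and 24.4 in GG (-0.58). Centred within chromosomes, these differences were -0.28 and -0.21. The last end of chromosome 5 (-0.35), the first end of chromosome 2 (-0.34) and the first end of chromosome 9 (-0.28) completed the 5 of the smallest p in this direction, and after centring they were 0.081, -0.12 and -0.22. On chromosome 5 the first end went the other way, with 37.2 and 54.1 kb per Mb in AG and 47.0 and 38.1 in GG (difference 0.44).

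Differences between AG and GG also move with density, and many ends are dense. Segments were therefore ranked by mean coverage and split into 3 classes of equal size, a step added once the data had been seen. In the dense class the median AG minus GG difference was 0.42 over 18 ends and 0.06 over 161 other segments. In the middle class it was 0.44 over 13 ends and -0.12 over 165 other segments. In the sparse class it was -0.11 over 9 ends and -0.31 over 170 other segments. Within each class the ends thus had the higher median, and both AG libraries stood above both GG libraries at 77.8%, 53.8% and 22.2% of the ends of the dense, middle and sparse classes, against 34.2%, 18.2% and 9.41% of the other segments. The classes did not match the coverage of ends and other segments. Mean scaled coverage (log2) in the sparse class was -0.80, -0.62, -0.64 and -0.74 at the ends and -1.25, -0.95, -0.76 and -0.78 elsewhere. In the middle and dense classes it was higher at the ends in both AG libraries and lower in both GG libraries. The part of density in the differences was not tested. Segments are not replicates, and gene or base content could not be measured here.

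**Figure D4:**
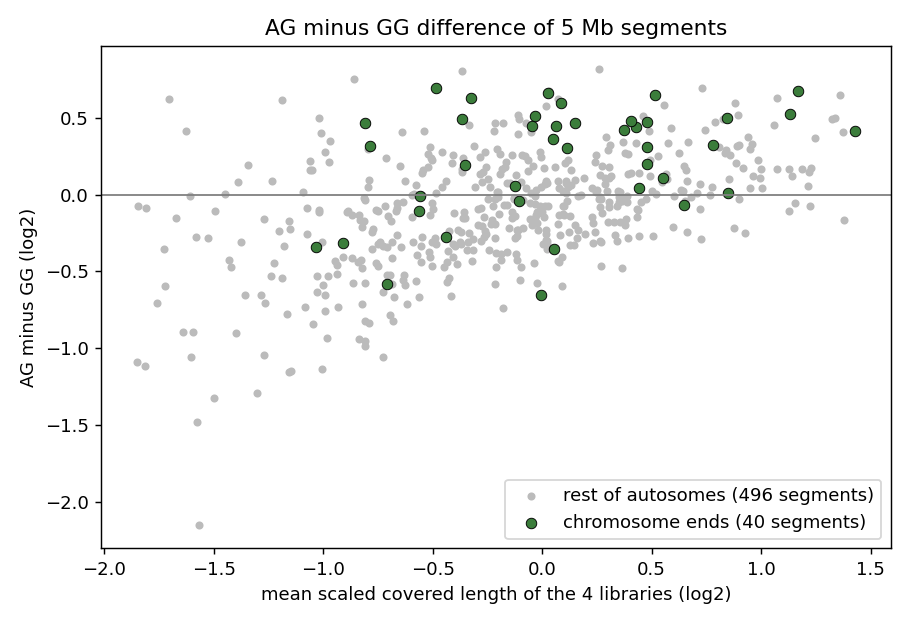
AG minus GG difference (log2 of scaled covered length) of 536 segments of about 5 Mb against their mean scaled coverage in 4 libraries (log2), ends in green and other segments in grey. The ends lie mostly above 0 (30 of 40, median 0.34), the grey points around a median of -0.08 with many sparse segments far below 0.

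Windows of 1 Mb placed the differences more finely. A window belonged to an end when the middle of its full 1 Mb lay there, so 7 partly filled windows at the tips of chromosomes 5, 6, 8, 12, 15, 16 and 18 counted with the rest. All 200 windows of the ends passed the minimum of 2000 bp of mean coverage, and their median AG minus GG difference was 0.30 against -0.07 in the 2482 other windows tested. Both AG libraries stood higher in 106 of 200 end windows (53.0%; background 24.1% of 2682 windows) and both GG libraries in 30 (15%; background 28.9%). By limma 0 of 200 passed an adjusted p of 0.05 (background 0% of 2682), and 44 had an unadjusted p under 0.05, of which 37 were higher in AG (background 6.67%) and 7 in GG (background 11.3%). The variance trend called 32 (27 with more in AG, 5 with more in GG; background 8.28%), and an offset of 10000 bp called 10, or 5.0%, next to a background of 5.03%. With the 7 tip windows counted as ends, the median over 207 windows was 0.31, and both AG libraries stood higher in 110 and both GG libraries in 31. Over 2-fold, 13 end windows were higher in AG (background 2.65%) and 6 higher in GG (background 8.72%).

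The window of the smallest p at the ends was chromosome 11 from 129000001 to 130000000, with 17.8, 23.2, 8.81 and 8.68 kb (log2 difference 1.48, SE 0.22, limma adjusted p = 0.132, n = 2 per group). The next were all in first ends. The outermost window of chromosome 19, from 1 to 1000000, had 84.4, 106, 60.8 and 53.7 kb (1.07). The outermost window of chromosome 15 had 38.3, 38.5, 16.8 and 21.8 kb (1.33). Chromosome 8 from 1000001 to 2000000 (1.14) and chromosome 11 from 2000001 to 3000000 (1.16) followed. AG and GG values do not overlap in any of these 5 windows, but the choice by smallest p favours that and it is no further support.

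At the ends, the windows of smallest p that were higher in GG had differences between -0.71 and -1.13. The one on chromosome 9 from 3000001 to 4000000 had 19.8, 28.5, 56.8 and 63.2 kb (log2 difference -0.94, SE 0.24, limma adjusted p = 0.171, n = 2 per group). The outermost window of chromosome 13 had 13.2, 11.6, 40.6 and 30.2 kb (-1.07). Chromosome 4 from 3000001 to 4000000 (-0.89), chromosome 5 from 186000001 to 187000000 (-1.13) and chromosome 18 from 2000001 to 3000000 (-0.71) were the others of this rank. In all 5 both GG values lay above both AG values, which the choice by smallest p again favours.

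Hotspots that overlapped or touched between lists were merged into 222776 autosomal regions, of which 19129 (8.59%) lay at the ends. Regions called in both AG and neither GG library (AG-only) numbered 564 at the ends, 11.9% of all 4727 such regions. Regions called in both GG and neither AG library (GG-only) numbered 898, 7.35% of 12210, where the ends make up 7.48% of the autosomal length. Regions called in all 4 libraries numbered 1290 at the ends, 9.80% of 13158, and those of the mixed pairs of an AG and a GG library 9.55%. Per Mb, AG-only regions were 1.68 times as dense at the ends as in the rest, regions in all 4 libraries 1.35 times and GG-only regions 0.982 times. A high end share was not particular to AG-only regions. Regions of both AG libraries and GG replicate 1 or 2 had end shares of 12.1% and 11.2% (1.70 and 1.56 times as dense). Those of both GG libraries and AG replicate 1 or 2 had 8.34% and 8.87%. GG-only regions outnumbered AG-only regions 2.72 to 1 in the rest and 1.59 to 1 at the ends.

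The order of the AG-only and GG-only shares was the same with lists made equal. With lists shortened to equal number, the ends held 11.8% of the AG-only regions and 7.55% of the GG-only ones. With lists shortened to equal covered length, also an added setting, the shares were 12.1% and 7.77%, and AG-only regions at the ends (613) outnumbered GG-only regions (454). Regions are not replicates and these counts carry no test. Regions called in 1 library followed the same pattern, with 9.65% and 9.27% at the ends for those of AG replicates 1 and 2 alone and 7.31% and 7.40% for those of GG replicates 1 and 2 alone.

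**Figure D5:**
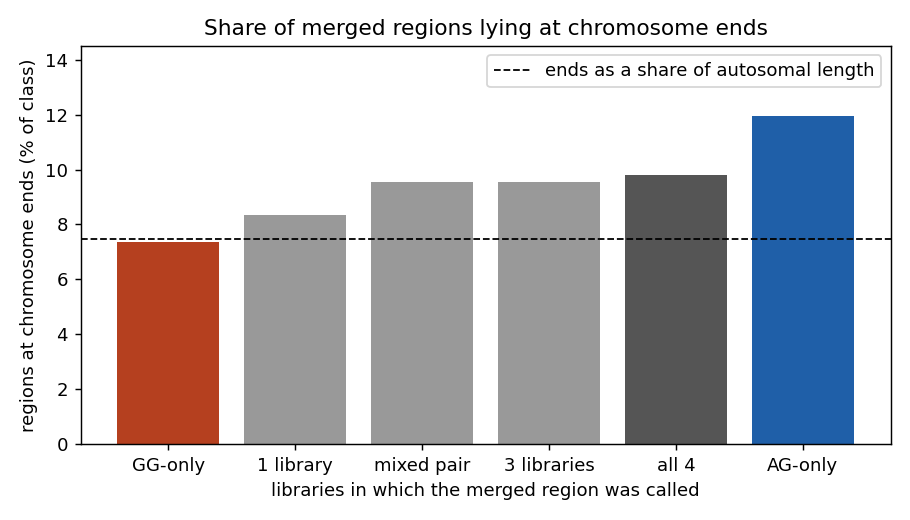
Share of merged autosomal regions that lie at chromosome ends (% of each class, axis from 0), by the libraries in which a region was called, with the ends' share of autosomal length (7.48%) dashed. GG-only regions sit at 7.35%, next to the dashed line, regions in all 4 libraries at 9.80% and AG-only regions at 11.9%.

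The strongest end regions common to all libraries lay mostly next to the chromosome tips. They are ranked by the lowest score percentile over the libraries, a rank within each list. Chromosome 10 at 92831473 to 92836518 had rank 1, about 0.01 Mb from the last hotspot end of the chromosome, at the 99.97th, 99.96th, 99.97th and 99.98th percentiles. Another region lay beside it, at 92838138 to 92840749, and had rank 4. Chromosome 8 held the regions of rank 2, at 24130 to 26262, and of rank 5, at 222647 to 234821, and the latter was 12175 bp wide, with 11635 to 12175 bp called in each library. Chromosome 17 at 2409547 to 2412891 had rank 3, and alone of the 5 lay over 2 Mb from its chromosome's tip.

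The leading AG-only regions lay deeper, and chromosome 19 held the most of them. For scale, the first and last ends of chromosome 19 held 38 and 36 of the 564 AG-only end regions. These dense ends also held 33 and 35 GG-only regions and 86 and 125 regions in all 4 libraries. Chromosome 6 at 2912450 to 2913874 had rank 1, at the 99.8th and 99.6th percentiles. On chromosome 19 the regions were 52399221 to 52403576 (99.6th and 99.2nd percentiles), 50053919 to 50061271 (97.7th and 97.9th) and 1503853 to 1505727 (99.5th and 96.3rd), the last with 201 of its 1875 bp called in AG replicate 1. Chromosome 7 at 4341193 to 4342595 had rank 5, at the 98.4th and 95.7th percentiles.

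The leading GG-only regions were all in first ends, but so few regions cannot set first ends apart from last ends. Chromosome 17 at 2304466 to 2305828 was at the 99.9th percentile of both GG libraries, with 1300 and 1252 of its 1363 bp called. The region of rank 3 among those in all 4 libraries is on the same chromosome, a little further inward. Chromosome 4 held regions at 1455730 to 1456862 (99.3rd and 99.2nd percentiles, with 68 bp called in GG replicate 1) and 2111267 to 2112135 (98.6th and 96.2nd). Chromosome 9 at 3797369 to 3800753 (95.9th and 95.8th) lies in the window of this chromosome that was higher in GG, and chromosome 6 at 1068014 to 1069623 (99.3rd and 95.7th) was last. For comparison, the median lowest percentile was 42.6 over the AG-only and 42.2 over the GG-only regions at the ends.

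Hotspots at the ends scored slightly higher within their lists. The median score percentile at the ends was 52.8 and 52.7 in AG and 54.1 and 53.6 in GG, and in the rest it was between 49.6 and 49.7. The excess over the rest was 3.22, 3.05, 4.50 and 3.99 percentiles, higher in 4 of 4 libraries (two-sided exact sign-flip p = 0.13). Of the highest-scoring 10% of each list's hotspots, 10.4% and 10.3% lay at the ends in AG and 9.99% and 9.37% in GG, and of the lowest 10%, 8.98% and 8.37% in AG and 7.07% and 7.86% in GG. Among the highest 1% the ends held 12.1% and 12.6% in AG and 9.57% and 9.41% in GG, which is 77 and 105 hotspots in AG and 87 and 77 in GG. Of all autosomal hotspots in the same lists, 9.84%, 9.59%, 8.13% and 8.13% lay at the ends. Against that share the highest 10% were enriched 1.06, 1.08, 1.23 and 1.15 times, more in GG than in AG, and the highest 1% were enriched 1.23, 1.31, 1.18 and 1.16 times, more in AG.

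Median widths differed by at most 30 bp between the ends and the rest. Median widths at the ends were 921 and 917 bp in AG and 894 and 892 bp in GG, against 903, 888, 905 and 922 bp in the rest of the same libraries. By the median, end hotspots were thus 18 and 29 bp wider than the rest in AG and 11 and 30 bp narrower in GG. The 90th percentiles of width were 1885, 1694, 2051 and 2002 bp at the ends and 1925, 1684, 2076 and 2051 bp in the rest. There, the ends were narrower in AG replicate 1 too. Spacing followed density: the median gap to the next hotspot was 14.4 and 12.2 kb at the ends and 17.8 and 15.4 kb in the rest in AG, and 11.1 and 12 kb against 12.7 and 13.9 kb in GG.

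Hotspots at the ends were found again in the other replicate somewhat more often than those in the rest. In AG replicate 1, 37.2% at the ends and 34.3% in the rest overlapped a hotspot of AG replicate 2 by at least 1 bp, and in AG replicate 2 the shares were 28.5% and 25.8%. In GG replicate 1 they were 40.4% and 37.8%, and in GG replicate 2 they were 44.5% and 41.8%. The mean excess was 2.71 percentage points, positive in 4 of 4 libraries, and 0.924 points in the higher-scoring 50% of each list. Both values of a group come from the same pair of libraries, read in opposite directions. They are not 4 separate values, so no SD or p-value is given. Overlap by 1 bp also rises with the density of the other list. The lists had 31.8, 40.9, 37.8 and 34.5 hotspots per Mb at the ends, against 23.6, 31.1, 34.6 and 31.5 in the rest. The part of density in this excess was not tested.

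Between the kinds of embryo the overlap was not symmetric. Of GG hotspots at the ends, 30.8 to 31.9% overlapped a hotspot of an AG library, against 24.9 to 26.7% in the rest, an excess of 4.92 to 6.06 points over the 4 pairings. Of AG hotspots, 26.2 to 37.0% at the ends and 26.5 to 37.9% in the rest overlapped one of a GG library, and the excess was between -0.95 and 0.92 points. Mean excesses were 5.37 points for GG and -0.304 points for AG hotspots. Both means come from the same 4 pairings, read in opposite directions, so no SD or p-value is given for their difference. The density of the AG lists, which is relatively high at the ends, moves with this difference, and its part in it was not tested. By Jaccard index, shared over total covered bp, the ends had 0.174 within AG, 0.262 within GG and 0.151 to 0.187 between, against 0.168, 0.246 and 0.143 to 0.172 in the rest, so at the ends, as in the rest, the value within AG fell between the lowest and highest values of mixed pairs.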

How the data were processed

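DNase-seq hotspots of 2 AG and 2 GG libraries were used as the authors deposited them, 1 list per library at a false discovery rate of 0.01. Each hotspot has a position and the authors' score, used only as a rank within a list, since no source used here gives its scale or the caller. The submitters' processing notes name rheMac8, deepTools 3.3.1, SAMtools, Bowtie2 and Trim Galore, without saying what each did. Reads per library are unknown, so no counting interval was possible, and unequal depth can change how many hotspots a list holds.

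Hotspots were assigned to ends, segments or windows by midpoint. Chromosome length was the last hotspot end in any list. Covered length was fitted with limma (lmFit, eBayes, no trend) on all segments (minimum mean 10000 bp) or windows (minimum 2000 bp, offset 1000 bp). The fits were tested on simulated data: of 536 simulated segments, those changed by log2 1 were called in 68.5% and by log2 2 in 96.2%, and of 2682 simulated windows in 4.0% and 66.0%. The simulation changed 54 and 53 segments and 100 and 100 windows by these amounts, and many changed members ease the adjusted threshold. Differences at the real ends ran only from -0.65 to 0.69, so these rates do not give the power there. Single values had exact permutation or sign-flip tests over libraries, none of which can reach 0.05 with 4 libraries, so they were not adjusted. Overlaps between libraries are given without a test, because each pair of libraries enters in both directions. Named regions, ends and windows were the 5 of highest rank or smallest p per class or direction. Named chromosomes were the 3 highest and the 3 lowest ratios; other ends and chromosomes named in the text were chosen after their values were seen. The members and all rules were chosen with earlier results of these data known. The software was R 4.3.3 with limma 3.58.1 and Python 3.11.15 with pandas 2.3.3, numpy 2.4.6 and matplotlib 3.10.9. Alternatives were other end lengths and comparison regions, filtered or shortened lists, other offsets, scalings and variance models, replicate blocks and leaving out libraries or chromosomes.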

Additional observations from a re-analysis of the deposited data

Results flagged for a closer look

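On chromosomes 7, 11 and 16 the ends were denser than the rest in both AG libraries and sparser in both GG libraries. The end-over-rest ratios on chromosome 7 were 1.12 and 1.14 in AG and 0.805 and 0.815 in GG (AG minus GG 0.48 on the log2 scale), on chromosome 11 they were 1.08 and 1.13 against 0.819 and 0.731 (0.51), and on chromosome 16 they were 1.01 and 1.18 against 0.957 and 0.839 (0.29). The difference was not tested on single chromosomes. Median hotspot width, end minus rest, was above 0 in both AG and below 0 in both GG libraries, by 44 bp in the means, a difference on which 2 libraries against 2 cannot give a p under 0.33.

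The ends of chromosome X, which are outside the autosomes compared here, held 6 and 10 hotspots in AG replicates 1 and 2 and 7 and 6 in GG replicates 1 and 2, of 17, 48, 82 and 117 on X in all. They are given because they lie outside the comparisons above, and whether they exceed the noise of hotspot calling was not tested.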

How the results depend on the processing

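The mean log2 end-over-rest ratio stayed above 0 and the AG minus GG difference stayed positive under every setting tried. In this order, those values were 0.46 and 0.37 with ends of 2 Mb, 0.23 and 0.25 with ends of 10 Mb, 0.32 and 0.28 with the higher-scoring 50% of each list, 0.29 and 0.31 with lists shortened to the shortest, 0.30 and 0.27 at equal covered length, 0.15 and 0.30 without chromosomes 19 and 20, 0.11 and 0.18 against the next 5 Mb, 0.12 and 0.25 as the median over chromosomes, and 0.19 and 0.25 against each chromosome's own rest. Without chromosome 19 the mean ratio was 0.20, and by number of hotspots the difference was 0.28. Leaving out 1 library gave 0.21 to 0.32 for the mean and 0.31 to 0.34 for the difference. Covered length at the ends, AG minus GG, was -1.56 Mb with ends of 10 Mb and 1.03 Mb at equal covered length, was 44 as a number of hotspots, and ran from -1.13 to 0.449 Mb without 1 library.

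Ends called by limma numbered 8 with an offset of 50000 bp (9.89% of all segments were called), 5 with median scaling (9.14%), 16 with a variance trend (12.1%), 1 with lists shortened to the shortest (4.66%), 6 centred within chromosomes (8.77%) and 0 to 1 without 1 library (1 without GG replicate 2, 3.92%). End windows called numbered 10 with an offset of 10000 bp (5.03% of all windows) and 32 with a variance trend (8.28%), and 0 with tip windows counted as ends. Median scaling moved the median over all windows from -0.04 to 0.08. Same-numbered libraries did not deviate together (r = -0.225 over 536 segments, a description), so the numbers were not taken to pair them. With the replicate block or the crossed replicate block 0 ends and 0 windows were called, and the blocked AG minus GG difference of the ratio was 0.32. Of single ends, the last end of chromosome 8 changed sign to -0.020 with the larger offset, -0.21 with the higher-scoring 50% and -0.056 with shortened lists, and ran from -0.039 (without AG replicate 1) to 0.063 without 1 library. The last end of chromosome 18 ran from -0.022 (without AG replicate 2) to 0.96, the first end of chromosome 13 from -0.63 to 0.0025 (without GG replicate 1), and the last ends of chromosomes 5 and 19 turned to 0.081 and -0.15 after centring within chromosomes. The cause was not tested in any of these.

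AG-only and GG-only regions at the ends numbered 321 and 546 with the higher-scoring 50%, 279 and 390 with ends of 2 Mb, and 969 and 1865 with ends of 10 Mb. GG-only regions numbered 454 at equal covered length. Without 1 library, AG-only ran from 753 to 5298 (3488 and 5298 without an AG library) and GG-only from 1247 to 4418 (3992 and 4418 without a GG library), since fewer lists then define a class. Requiring that lists cover 50% of a region moved 5 of the 15 named regions to another class. The excess in replicate overlap was 2.30 points at 50% overlap, 0.924 in the higher-scoring 50%, 2.44 with shortened lists, 5.04 with ends of 2 Mb and 3.04 with ends of 10 Mb. The excess in score percentile was 3.09 without chromosome 19, 5.08 with ends of 2 Mb and 3.42 to 3.90 without 1 library. Median width, end minus rest, was 12.5 bp with ends of 2 Mb and -7.67 to 12 bp without 1 library. Equal covered length, each chromosome's own rest, centring, the crossed block and the tip windows were chosen after seeing the data. Depth is unknown, so a hotspot missing from a list may lie below its detection limit.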
